A study of Mus musculus with 4 samples.

Results

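Growth plate-like chondrocytes (GPLC), a wild-type mouse cell line, were compared after 10 days and after 1 day of culture. The comparison takes the 4 day 10 libraries, numbered 1 to 4, and the 3 day 1 libraries, numbered 1, 3 and 4, by the day and number in their column names. They are 7 of the 15 libraries in the expression table, and the other 8 are from days 3 and 5. Of its 24499 genes, 12109 reached 1 CPM on average of the day means and were tested. CPM is reads assigned to a gene relative to the depth of the library, scaled by the authors for library composition. Cells of both days grew in DMEM with 10% fetal bovine serum, ascorbic acid and insulin, transferrin and selenium, and neither day had a further treatment in the labels. Total RNA of sorted cells was sequenced after removal of ribosomal RNA, and the labels do not say how cells were sorted or whether the line is a single clone. They give 1 sample per day and no meaning for the library numbers, so p-values reflect only how libraries spread, which may be technical. Libraries held 14544289 to 18841621 assigned reads on day 10, against 13358241 to 16468236 on day 1.

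In the growth plate, round and columnar chondrocytes divide and lay down cartilage matrix, then leave the cell cycle, enlarge and mineralize the matrix around them. Indian hedgehog and parathyroid hormone-related protein pace that passage, and RUNX2 and SP7 drive late chondrocytes and osteoblasts alike. Cultured chondrocytes are also known to shift toward fibroblast-like or bone-like expression with time. The chondrocyte label was looked at in Col2a1 and Sox9, out of a longer fixed list of chondrocyte markers. Col2a1, the main collagen gene of cartilage, had 2135, 1262, 5271 and 12719 CPM on day 10, against 3393, 3471 and 3024 CPM on day 1, and Sox9, a transcription factor that specifies chondrocytes, had 115, 64.8, 224 and 287 CPM on day 10, against 411, 348 and 377 CPM on day 1. Both were well above 1 CPM in all 7 libraries, but Sox9 was called lower on day 10 by the test given below. Among the other fixed markers, Matn1 was near 1 CPM on day 1 and was called higher on day 10, as was Col11a2. Acan, Hapln1 and Col9a1 were not called, like Col2a1. Markers of 4 other cell types were low on both days. Pecam1 and Cdh5 (endothelium), Ptprc (white blood cells) and Myod1 (muscle) were at or below 0.127 CPM in each of the 7 libraries, with Myod1, Adgre1 and Itgam at 0 in all 7. Summed over the lists, 13 endothelial genes had 16.9 to 31.3 CPM on day 10 against 21.1 to 28.6 on day 1, and 14 macrophage and osteoclast genes had 3.84 to 6.23 against 4.53 to 5.38. The 13 muscle genes summed to 10.5 to 26.3 CPM on day 10 against 2.52 to 3.47 on day 1, mostly Acta1 and Tnnc2, and the 13 neural and glial genes to 19.7 to 63.3 against 69.3 to 76.7. Lists of bone and tendon genes summed to more. The 19 osteoblast genes, Col1a1 and Col1a2 among them, had 8554 to 70384 CPM on day 10, highest in library 2, against 9402 to 12868.5 on day 1. The 18 cartilage matrix genes had 3783 to 17156, lowest in library 2, against 4789 to 5431. The 18 tendon and fibroblast genes had 2676 to 3902 against 1191 to 1267, and the 17 adipocyte genes 259 to 588 against 203 to 231. The part of these cell types in the results was not tested.

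On day 10, 2939 genes were higher than on day 1 (24.3% of those tested) and 3044 were lower (25.1%). The test was limma on log2(CPM + 1), with an adjusted p of 0.05 or less over all genes tested, and in what follows rose and fell are used only of genes that passed it. Changes of 2-fold or more were found for 1391 of the higher genes (11.5% of those tested) and 728 of the lower ones (6.01%), so large rises were more frequent than large falls. At 8-fold the counts were 163 and 6. The filter averages all days, so a gene present on day 1 alone needed a higher level to be tested than one present on all later days. With the filter at 5 CPM the 2-fold counts were 1007 higher and 663 lower. The day 10 and day 1 libraries did not overlap for 6384 genes (52.7%), of which 5564 were among the 5983 called. The median log2 difference over all genes tested was -0.0087, against which list medians can be read. Libraries spread more on day 10. The median SD of log2(CPM + 1) over genes was 0.278 on day 10, against 0.107 on day 1, and was larger on day 10 for 86.2% of genes. In bulk RNA, fewer cells of a type and less RNA per cell cannot be told apart.

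**Figure D1:**
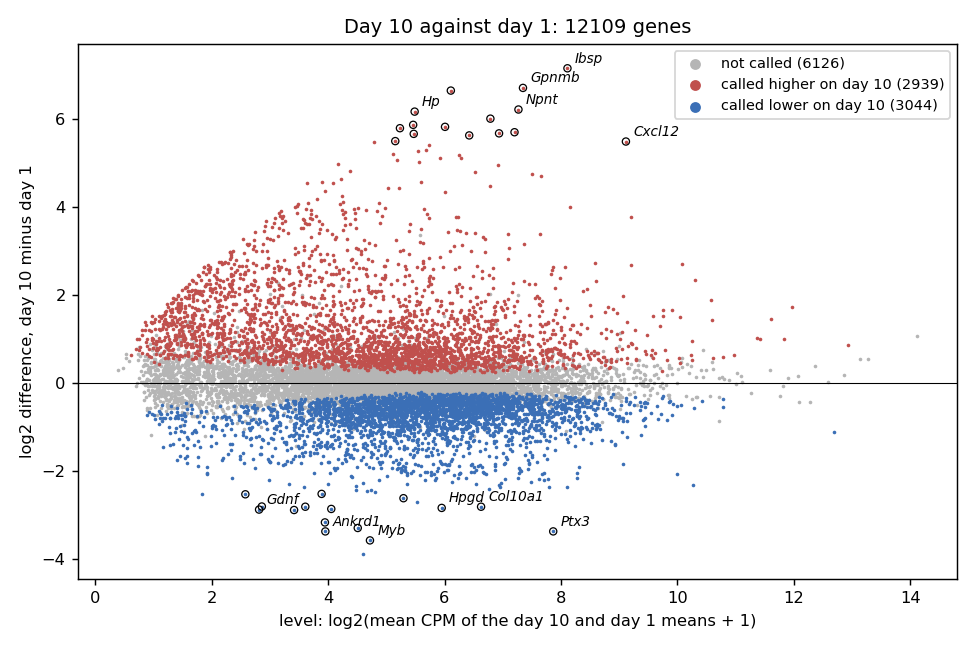
Log2 difference of day 10 minus day 1 (vertical axis) against level (horizontal axis, log2 of the mean of the day 10 and day 1 means in CPM + 1) for the 12109 genes tested. Red points are the 2939 genes called higher on day 10, blue points the 3044 called lower and grey points the rest, and open rings mark the 15 highest and 15 lowest of the genes named by rule. Rises reach a log2 difference of 7.16, while falls end at -3.91.

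The largest rises were spread over matrix, iron, complement and surface genes. Gpnmb, a transmembrane glycoprotein of lysosomes and of bone cells (chr6:49036546-49070929, GRCm38), had 377, 31.0, 369 and 513 CPM on day 10, against 1.22, 1.37 and 0.742 CPM on day 1. Library 2 was over 10 times below the other day 10 libraries, and the log2 difference was 6.71 ± 0.67 (SE, adjusted p = 2.6e-06), or 7.63 without library 2. Npnt, nephronectin, a matrix ligand of integrins (chr3:132881745-132950291, GRCm38), had 292, 370.2, 271 and 280.5 CPM on day 10, against 4.57, 1.799 and 3.28 CPM on day 1. Its day 10 libraries lay within 1.37-fold of each other, and the log2 difference was 6.22 ± 0.28 (SE, adjusted p = 5.9e-09). F13a1, the A chain of clotting factor XIII, a transglutaminase, had 113, 111, 61.4 and 57.4 CPM on day 10, against 0.67, 0.288 and 0.309 CPM on day 1 (log2 difference 5.87 ± 0.40 SE, adjusted p = 8.4e-08). Itgbl1, a secreted protein with integrin-like repeats, had 150.4, 81.6, 108 and 161 CPM on day 10, against 2.74, 0.432 and 0.866 CPM on day 1 (log2 difference 5.82 ± 0.35 SE, adjusted p = 3.3e-08). For each of these 4 genes the lowest day 10 library was well above the highest day 1 library.

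Transporters and secreted proteins stood among them. Slc40a1, ferroportin, the cell's iron exporter, had 340.5, 165, 94.6 and 71.6 CPM on day 10, against 2.44, 1.295 and 1.92 CPM on day 1 (log2 difference 5.63 ± 0.42 SE, adjusted p = 1.7e-07). Lbp, which binds bacterial lipopolysaccharide, had 71.6, 42.0, 101 and 129 CPM on day 10, against 1.28, 0.216 and 0.433 CPM on day 1 (log2 difference 5.66 ± 0.43 SE, adjusted p = 1.8e-07). In both genes the groups were far apart. Cxcl12, a chemokine that retains progenitor cells in marrow, had 598, 547, 1667 and 1534 CPM on day 10, against 24.9, 18.7 and 18.0 CPM on day 1 (log2 difference 5.49 ± 0.36 SE, adjusted p = 7.3e-08). Its day 10 libraries numbered 3 and 4 were above those numbered 1 and 2, and all 4 were above day 1. Dcn and Lum, small proteoglycans that organize collagen fibrils, were also among the 15 highest, at 5.68 and 5.70 (log2). Their day means were 3.85, 195, 571 and 239 CPM for Dcn and 4.96, 151, 401 and 287 CPM for Lum on days 1, 3, 5 and 10, so both were highest on day 5.

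The largest falls were smaller than the largest rises, and several were in transcription factors and secreted signals. Myb, a transcription factor of dividing progenitors (chr10:21124935-21160984, GRCm38), had 3.48, 1.78, 4.19 and 2.94 CPM on day 10, against 58.7, 41.6 and 42.4 CPM on day 1 (log2 difference -3.59 ± 0.31 SE, adjusted p = 5.9e-07). Ptx3, a secreted pattern recognition protein, had 46.6, 27.3, 36.3 and 53.9 CPM on day 10, against 425, 410.1 and 436 CPM on day 1 (log2 difference -3.38 ± 0.35 SE, adjusted p = 3.3e-06). Tmeff2, a transmembrane protein with follistatin-like domains, had 3.36, 1.09, 3.77 and 5.72 CPM on day 10, against 34.1, 42.4 and 43.7 CPM on day 1 (log2 difference -3.304 ± 0.30 SE, adjusted p = 1.1e-06). That the groups did not overlap in these 3 was a condition for naming them. Gdnf, a neurotrophic factor, had 0.633, 0.861, 0.262 and 0.979 CPM on day 10, against 13.8, 9.86 and 10.5 CPM on day 1 (log2 difference -2.89 ± 0.27 SE, adjusted p = 1.3e-06), and Sema3e, a guidance ligand of the semaphorin family, had 9.24, 7.81, 12.6 and 10.5 CPM on day 10, against 75.0, 62.5 and 61.9 CPM on day 1 (log2 difference -2.63 ± 0.18 SE, adjusted p = 8.9e-08). For both, no overlap was again a condition for naming. Hpgd, the enzyme that inactivates prostaglandins, had 15.8, 25.9, 12.9 and 6.78 CPM on day 10, against 93.7, 112 and 113 CPM on day 1 (log2 difference -2.85 ± 0.30 SE, adjusted p = 4.1e-06). Ptgs2, which makes them, was lower as well, at 3.80, 18.7, 5.49 and 5.197 CPM on day 10, against 29.9, 51.4 and 46.9 CPM on day 1 (log2 difference -2.44 ± 0.37 SE, adjusted p = 8.3e-05). Cyp26b1, which breaks down retinoic acid, had 2.60, 1.66, 3.71 and 3.99 CPM on day 10, against 18.8, 34.8 and 31.0 CPM on day 1 (log2 difference -2.87 ± 0.41 SE, adjusted p = 5.5e-05). The groups did not overlap in Ptgs2, and for Hpgd and Cyp26b1 this was a condition for naming. Sox11, a transcription factor of embryonic mesenchyme, had 1.39, 0.402, 3.45 and 3.77 CPM on day 10, against 13.8, 20.7 and 25.9 CPM on day 1 (log2 difference -2.82 ± 0.41 SE, adjusted p = 5.9e-05).

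**Figure D2:**
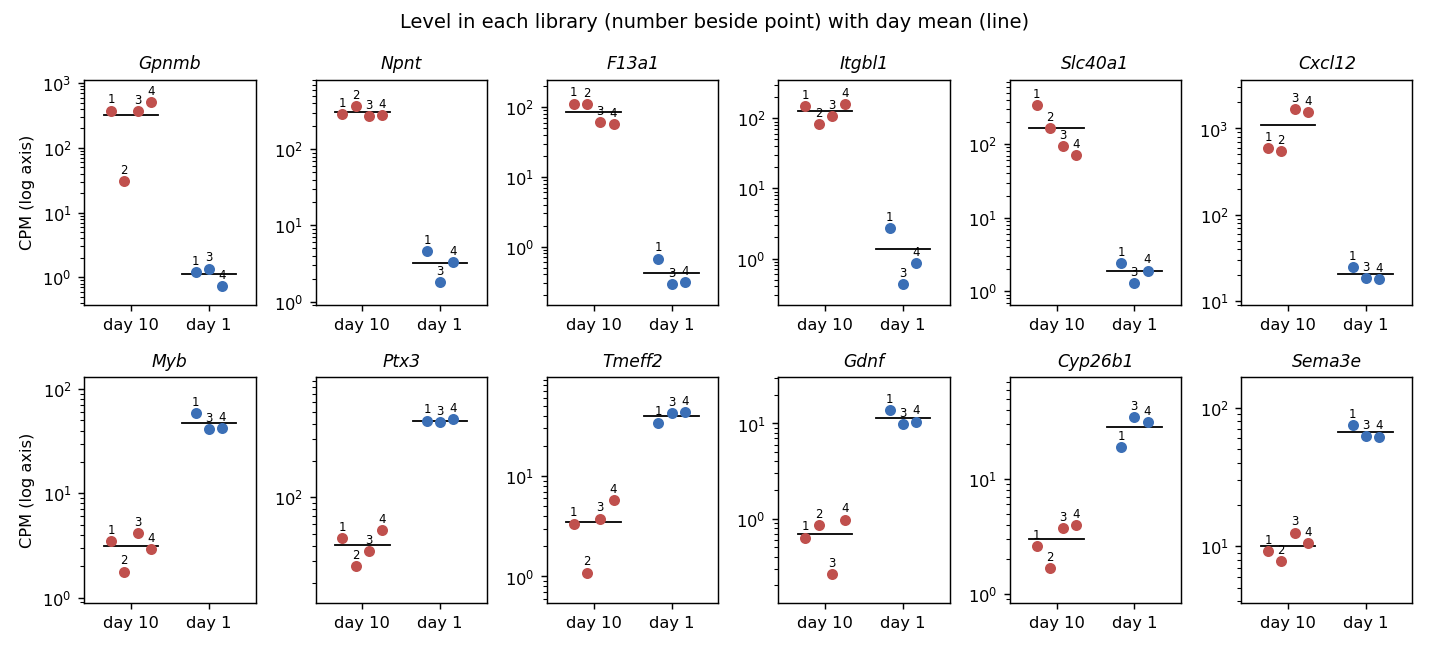
Level in CPM (vertical log axis, scaled per panel) in each library for 6 genes that rose and 6 that fell, with day 10 (red) left of day 1 (blue), the library number beside each point and a line at the day mean. The day 10 and day 1 libraries do not overlap in any of the 12 panels, which was a condition for naming these genes. Library 2 stands below the other day 10 libraries for Gpnmb and Tmeff2.

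Genes of mineralizing cartilage and bone rose, with wide differences between the day 10 libraries. Of 23 tested genes of hypertrophic and mineralizing chondrocytes, 16 rose (69.6%, against 24.3% of all genes tested). In that list 2, Col10a1 and Car12, fell (8.70%, against 25.1%), and the median log2 difference was 2.01. Phospho1, a phosphatase of matrix vesicles, had 161, 592, 75.3 and 111 CPM on day 10, against 4.26, 3.96 and 5.13 CPM on day 1 (log2 difference 4.96 ± 0.46 SE, adjusted p = 1.3e-06, and 4.36 without library 2 of day 10). Smpd3, a sphingomyelinase needed for mineralization, had 331, 907, 109.8 and 146 CPM on day 10, against 18.3, 29.6 and 26.8 CPM on day 1 (log2 difference 3.38 ± 0.71 SE, adjusted p = 0.0012, and 2.79 without library 2 of day 10). Enpp1, which makes the mineralization inhibitor pyrophosphate, had 88.7, 120.1, 113 and 94.0 CPM on day 10, against 46.9, 22.4 and 22.02 CPM on day 1 (log2 difference 1.82 ± 0.25 SE, adjusted p = 3.6e-05). Library 2 of day 10 was the highest for Phospho1 and Smpd3. Mgp, an inhibitor of calcification, had 83.0, 133, 163 and 91.4 CPM on day 10, against 3.23, 1.87 and 1.98 CPM on day 1 (log2 difference 5.11 ± 0.42 SE, adjusted p = 4.2e-07), with day 10 below the day 5 mean of 232 CPM. Spp1, Ibsp and Dmp1 encode osteopontin, bone sialoprotein and dentin matrix protein, and lie near each other on chromosome 5 (chr5:104435118-104441050, chr5:104299171-104311469 and chr5:104202613-104214102, GRCm38). Spp1 had 510.4, 749, 719.9 and 604 CPM on day 10, against 303, 177 and 167 CPM on day 1 (log2 difference 1.62 ± 0.32 SE, adjusted p = 0.00074). Dmp1 had 8.61, 40.1, 9.05 and 10.5 CPM on day 10, against 0.366, 0 and 0.0619 CPM on day 1 (log2 difference 3.69 ± 0.52 SE, adjusted p = 4.8e-05). Ibsp had 324, 1824, 35.5 and 19.7 CPM on day 10, against 0.0609, 0 and 0 CPM on day 1, and its pooled reads gave 37840 reads on day 10 against 1 read on day 1, a ratio of 26808 with an exact 95% interval of 4811 to 1058910.0. Library 2 of day 10 was the highest of the 4 in all 3 neighbours, by a small margin for Spp1. The fitted log2 difference of Ibsp was 7.16, and 5.94, 7.82 and 8.09 without library 2, 3 or 4 of day 10.

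Members of the osteoblast list did not move as a block. Of 15 tested, 5 rose (among them Cdh11, Sp7, Ifitm5 and Pdpn), 3 fell (Tnn, Msx2 and Postn) and 7 did not pass, with a median of 0.39. The rising share was 33.3% and the falling share 20%, against 24.3% and 25.1% of all genes tested. Cdh11, a cadherin of osteoblasts and fibroblasts, had 23.2, 113, 13.3 and 13.1 CPM on day 10, against 0.67, 1.01 and 0.619 CPM on day 1 (log2 difference 3.96 ± 0.60 SE, adjusted p = 9.2e-05, and 3.27 without library 2 of day 10). Sp7 was at 3.46 (log2, adjusted p = 0.0032), and at 2.66 without library 2 of day 10. For Cdh11 and Sp7 library 2 of day 10 was the highest and libraries 3 and 4 the lowest of that day. Msx2, a homeobox factor of early skeletal cells, had 6.65, 10.33, 8.68 and 12.6 CPM on day 10, against 28.1, 28.2 and 29.5 CPM on day 1 (log2 difference -1.52 ± 0.18 SE, adjusted p = 1.3e-05). Tnn, tenascin N, had 2.47, 8.61, 0.209 and 0.452 CPM on day 10, against 13.2, 31.7 and 32.7 CPM on day 1 (log2 difference -3.18 ± 0.60 SE, adjusted p = 0.00049, and -3.78 without library 2 of day 10). The rising count was 3 without library 1 or library 2 of day 10, or without library 3 or library 4 of day 1. The Ifitm5 call was lost without library 1 or library 2 of day 10 or without library 1, 3 or 4 of day 1 (adjusted p up to 0.086), and its log2 difference was 2.23, and 1.29 and 2.86 without library 2 or library 4 of day 10. The Pdpn call was lost without library 1 or library 2 of day 10 or without library 3 or library 4 of day 1 (adjusted p up to 0.097). Postn lost its call without library 3 or 4 of day 1 (adjusted p = 0.067 and 0.068).

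Many cartilage matrix genes rose and others did not pass. Of 18 tested, 9 rose (50%, against 24.3% of all genes tested), Col9a3 fell (5.56%, against 25.1%) and 8 did not pass. Cilp2, a cartilage intermediate layer protein, had 52.2, 87.0, 80.9 and 177 CPM on day 10, against 1.52, 1.65 and 0.866 CPM on day 1 (log2 difference 5.29 ± 0.39 SE, adjusted p = 1.6e-07). Col11a2, a chain of collagen XI, had 423, 936, 259 and 547 CPM on day 10, against 29.97, 32.1 and 26.3 CPM on day 1 (log2 difference 4.01 ± 0.52 SE, adjusted p = 2.2e-05). Matn4, matrilin-4, had 95.8, 86.4, 140.0 and 270.2 CPM on day 10, against 3.41, 2.66 and 2.16 CPM on day 1 (log2 difference 5.18 ± 0.35 SE, adjusted p = 7.5e-08). The day 10 libraries were all above day 1 in these 3, by more than 5-fold. Col9a3, a chain of collagen IX, had 4.69, 4.53, 3.45 and 3.31 CPM on day 10, against 15.7, 15.4 and 9.90 CPM on day 1 (log2 difference -1.54 ± 0.39 SE, adjusted p = 0.0041). Aggrecan (Acan) had 162, 169, 394 and 702 CPM on day 10, against 426, 479 and 408 CPM on day 1, which overlapped (adjusted p = 0.42), with libraries 1 and 2 of day 10 below libraries 3 and 4. Without library 4 of day 10, 2 genes of the list fell. Of 17 chondrocyte transcription factors 11 rose (64.7%) and 2, Sox6 and Sox9, fell (11.8%). Runx1, which acts early in cartilage, had 110.4, 93.2, 61.1 and 86.3 CPM on day 10, against 21.3, 15.9 and 13.4 CPM on day 1 (log2 difference 2.31 ± 0.28 SE, adjusted p = 1.3e-05), while Runx2 had 284, 442, 174 and 169 CPM on day 10, against 241, 189.7 and 183 CPM on day 1 and did not pass (adjusted p = 0.41). Foxo3, a factor of stress resistance and autophagy, had 142, 125, 146 and 262 CPM on day 10, against 66.1, 71.8 and 68.7 CPM on day 1 (log2 difference 1.22 ± 0.20 SE, adjusted p = 0.00015). Elastic fibre and microfibril genes rose in 9 of 15 (60%) and fell in 2 (13.3%). Eln, elastin, had 224, 164, 58.3 and 120.0 CPM on day 10, against 12.3, 8.49 and 11.4 CPM on day 1 (log2 difference 3.46 ± 0.39 SE, adjusted p = 6.2e-06). Ltbp1, which holds TGF-beta in the matrix, was 1 of the 2 that fell, at 54.9, 98.7, 57.9 and 77.7 CPM on day 10, against 398, 377 and 334 CPM on day 1 (log2 difference -2.38 ± 0.29 SE, adjusted p = 1.5e-05).

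Interferon-response genes rose across nearly the whole list. Type I interferons signal to a shared promoter element, and the induced genes restrict viruses and raise antigen presentation. Of 27 tested members 26 rose (96.3%, against 24.3% of all genes tested) and 0 fell (against 25.1%), with a median log2 difference of 2.34. Ifit2 was the member that did not pass (65.0, 33.1, 70.9 and 56.0 CPM on day 10, against 52.1, 35.3 and 37.7 CPM on day 1, adjusted p = 0.14, and 0.0044 without library 2 of day 10). Over the leave-outs of single libraries the count was 22 to 27. Ifi27 had 23.1, 41.9, 57.7 and 63.0 CPM on day 10, against 2.01, 1.73 and 1.98 CPM on day 1 (log2 difference 3.93 ± 0.41 SE, adjusted p = 3.4e-06). Ifit3, which binds viral RNA, had 16.4, 6.26, 34.6 and 27.6 CPM on day 10, against 0.853, 0.288 and 0.866 CPM on day 1 (log2 difference 3.52 ± 0.50 SE, adjusted p = 4.7e-05). Libraries 3 and 4 of day 10 were the highest for both. Oasl2, a 2'-5' oligoadenylate synthetase-like gene, had 8.74, 12.6, 20.8 and 19.3 CPM on day 10, against 0.366, 0.36 and 0.371 CPM on day 1 (log2 difference 3.51 ± 0.48 SE, adjusted p = 3.5e-05). Irf7, the factor that amplifies interferon production, had 7.22, 7.06, 13.8 and 16.5 CPM on day 10, against 0.366, 0.576 and 0.371 CPM on day 1 (log2 difference 2.995 ± 0.59 SE, adjusted p = 0.00069). Usp18, which removes ISG15 from proteins, had 5.76, 10.22, 12.9 and 9.41 CPM on day 10, against 0.0609, 0.0719 and 0.0619 CPM on day 1, and its pooled reads gave 640 reads on day 10 against 3 reads on day 1, a ratio of 151 with an exact 95% interval of 51.5 to 735. In these 3 the day 10 libraries were all well above day 1. Members of the Gbp and Ifit families have near copies, and how reads shared by copies were counted is not given in the sources used here. The medians over the list, averaged over libraries, were -0.01, 0.61, 1.22 and 2.29 (log2 over day 1) on days 1, 3, 5 and 10. Library 2 was the highest on days 3 and 5, at 1.402 and 2.30 above day 1, and not on day 10, at 2.07, while day 1 has no library 2. Without the libraries numbered 2, 27 of 27 rose. White blood cell genes were below 1 CPM or at 0, with Ptprc, Adgre1, Itgam and Aif1 at 0 in all 4 day 10 libraries. Csf1r had 0.380, 0.230, 0.628 and 0.377 CPM on day 10, against 0.0609, 0 and 0 CPM on day 1. Lyz2 had 0.886, 0.172, 0.889 and 0.979 CPM on day 10, against 0.305, 0.0719 and 0.186 CPM on day 1. Whether such cells had a part in the rise was not tested.

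Genes of antigen presentation on MHC class I rose with them. Of 15 tested 13 rose (86.7%, against 24.3% of all genes tested) and 0 fell (against 25.1%), with a median of 1.21. Nlrc5, the factor that switches on MHC class I genes, had 10.07, 26.7, 11.3 and 15.2 CPM on day 10, against 2.13, 1.58 and 1.24 CPM on day 1 (log2 difference 2.58 ± 0.26 SE, adjusted p = 2.9e-06). Psmb8, a subunit of the immunoproteasome, had 4.05, 10.27, 5.91 and 8.13 CPM on day 10, against 0.792, 0.504 and 0.247 CPM on day 1 (log2 difference 2.37 ± 0.38 SE, adjusted p = 0.00013). B2m, the light chain of the class I molecule, had 324, 454, 448 and 247 CPM on day 10, against 227, 208 and 237 CPM on day 1 (log2 difference 0.67 ± 0.19 SE, adjusted p = 0.0084). The rise was large for the regulator and the proteasome subunit and small for B2m. The heavy chain H2-K1 had 90.7, 217, 99.7 and 125 CPM on day 10, against 74.8, 53.5 and 53.6 CPM on day 1 (log2 difference 1.05 ± 0.28 SE, adjusted p = 0.0063), and library 2 of day 10 was above the other 6 libraries. H2 genes are similar in sequence, so values of single members are uncertain.

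The interferon-stimulated response element is read here as GAAANNGAA on either strand. It was searched in the RefSeq promoters of GRCm38.p6, from 250 bases before to 50 after each start, after the list had been seen to rise. A promoter was found for 21 members, and 14 held it (66.7%), against 8.33% of the 9256 genes tested that have one and 9.76% of 27025 genes in all. The promoters of Ifit3 (chr19:34583279-34583578, plus strand) and Isg15 (chr4:156200769-156201068, minus strand) are printed 5′ to 3′ because they hold 3 matches each, which run into each other in Isg15. Capitals mark the matches, and the last 50 bases lie after the start of the transcript.
Ifit3: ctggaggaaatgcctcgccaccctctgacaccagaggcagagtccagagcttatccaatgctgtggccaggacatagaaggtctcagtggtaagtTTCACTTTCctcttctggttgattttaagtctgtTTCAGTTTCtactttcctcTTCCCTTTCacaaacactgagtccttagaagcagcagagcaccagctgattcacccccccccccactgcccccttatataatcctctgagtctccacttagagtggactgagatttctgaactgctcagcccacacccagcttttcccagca
Isg15: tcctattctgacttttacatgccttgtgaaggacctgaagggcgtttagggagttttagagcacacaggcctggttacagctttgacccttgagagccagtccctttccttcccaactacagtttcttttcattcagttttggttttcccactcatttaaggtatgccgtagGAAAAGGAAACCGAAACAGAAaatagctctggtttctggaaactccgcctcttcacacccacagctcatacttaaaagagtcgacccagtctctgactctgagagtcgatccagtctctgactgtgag
Isg15 encodes a ubiquitin-like modifier and had 4.18, 7.40, 13.9 and 15.9 CPM on day 10, against 0.914, 1.01 and 1.24 CPM on day 1 (log2 difference 2.32 ± 0.52 SE, adjusted p = 0.0018). A match is a description of the letters and not a site of binding.

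Complement and acute-phase genes rose further. The complement cascade tags surfaces for clearance, and most of its serum proteins come from liver. Of 23 complement genes measured, 9 reached the filter and were tested. The others, among them C1qa, C2, Cfb and Serping1, were too low to test. Of the 9 tested, 8 rose (88.9%, against 24.3% of all genes tested) and 0 fell (against 25.1%), with a median of 3.11, and Masp1 did not pass. C3 and C4b were below 1 CPM in each day 1 library and reached the filter through later days. C3, the component on which the pathways converge, had 27.9, 18.7, 95.005 and 222 CPM on day 10, against 0.67, 0.576 and 0.371 CPM on day 1 (log2 difference 5.27 ± 0.63 SE, adjusted p = 1.2e-05, and 4.63 without library 4 of day 10). C1s1, a protease of the first component, had 53.8, 46.3, 66.2 and 56.9 CPM on day 10, against 4.33, 2.09 and 3.09 CPM on day 1 (log2 difference 3.79 ± 0.40 SE, adjusted p = 3.6e-06). Its partner protease C1ra had 69.4, 49.0, 67.5 and 77.1 CPM on day 10, against 10.11, 5.32 and 6.99 CPM on day 1 (log2 difference 2.998 ± 0.40 SE, adjusted p = 2.8e-05). The day 10 libraries of C1s1 and C1ra lay close together, while those of C3 ranged over 10-fold. C4b had 71.0, 35.4, 172 and 265 CPM on day 10, against 0, 0.0719 and 0.0619 CPM on day 1, and its pooled reads gave 8545 reads on day 10 against 2 reads on day 1, a ratio of 3027 with an exact 95% interval of 838 to 24998, though reads shared with its near-identical copy next to it cannot be told apart. Hp, haptoglobin, which binds free haemoglobin, had 66.2, 26.2, 102 and 156 CPM on day 10, against 0, 0.0719 and 0 CPM on day 1, and its pooled reads gave 5523 reads on day 10 against 1 read on day 1, a ratio of 3913 with an exact 95% interval of 702 to 154578. For C3, C4b and Hp the day 10 libraries numbered 3 and 4 were above those numbered 1 and 2. Clu, clusterin, a chaperone and complement inhibitor, had 326, 124, 329 and 409 CPM on day 10, against 29.9, 28.9 and 30.1 CPM on day 1 (log2 difference 3.15 ± 0.33 SE, adjusted p = 3.3e-06). Of 22 inflammatory mediators 10 rose (45.5%, against 24.3% of all genes tested). In that list 5, Ptx3, Hpgd, Ptgs2, Il1rl1 and Lif, fell (22.7%, near the 25.1% of all genes tested). Tnfrsf11b, osteoprotegerin, the decoy receptor that blocks osteoclast formation, had 15.7, 43.0, 15.96 and 10.9 CPM on day 10, against 2.25, 2.09 and 2.04 CPM on day 1 (log2 difference 2.65 ± 0.48 SE, adjusted p = 0.00036). C4b and Clu were higher on average on day 5 than on day 10. The day means of C4b were 0.0446, 13.4, 161 and 136 CPM on days 1, 3, 5 and 10, and those of Clu 29.6, 183, 419 and 297 CPM.

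Lysosomal genes rose together. Lysosomes break down proteins, lipids and glycosaminoglycans taken up or made by the cell, and the factors TFEB, TFE3 and MITF switch on their genes. Of 36 tested members 29 rose (80.6%, against 24.3% of all genes tested) and 1, the proton pump subunit Atp6v1h, fell (2.78%, against 25.1%). The list median was 1.02, and the leave-outs of single libraries gave 29 or 30 rising. Ctsf, cathepsin F, had 105, 69.4, 108 and 139 CPM on day 10, against 12.4, 13.7 and 13.9 CPM on day 1 (log2 difference 2.86 ± 0.18 SE, adjusted p = 5.7e-08). Ctsl, cathepsin L, had 165, 139, 241 and 222 CPM on day 10, against 38.4, 32.5 and 34.4 CPM on day 1 (log2 difference 2.38 ± 0.18 SE, adjusted p = 2.0e-07). The day 10 libraries were all above the day 1 libraries in both. Gaa, which degrades glycogen, had 446, 334, 528 and 851 CPM on day 10, against 136, 116 and 108 CPM on day 1 (log2 difference 2.08 ± 0.22 SE, adjusted p = 4.4e-06). Naglu, which degrades heparan sulfate, had 41.3, 37.1, 45.1 and 67.2 CPM on day 10, against 9.504, 10.29 and 10.9 CPM on day 1 (log2 difference 2.08 ± 0.16 SE, adjusted p = 1.9e-07). Npc2, a cholesterol carrier, had 179, 123, 211 and 232 CPM on day 10, against 54.3, 46.3 and 49.3 CPM on day 1 (log2 difference 1.84 ± 0.18 SE, adjusted p = 2.3e-06). Of the regulators, Mitf rose, at 32.7, 18.6, 29.5 and 26.5 CPM on day 10, against 13.2, 12.9 and 11.4 CPM on day 1 (log2 difference 1.02 ± 0.17 SE, adjusted p = 0.00021). Tfeb rose too, at 6.02, 6.66, 5.28 and 10.5 CPM on day 10, against 3.90, 3.17 and 4.64 CPM on day 1 (log2 difference 0.70 ± 0.19 SE, adjusted p = 0.0078), while Tfe3 did not pass (adjusted p = 0.34). Atp6v1h was at -0.40 (log2), and its call was lost without library 4 of day 1 (adjusted p = 0.065). Most of the rise was in place by day 5, as the list medians were 0.00, 0.79, 1.05 and 1.04 (log2 over day 1) on days 1, 3, 5 and 10, and 0 of the 36 differed between days 10 and 5 by the test, where 3.75% of all genes tested were higher on day 10 than on day 5 and 2.02% lower.

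The letters CACGTG, the core of the element that TFEB and MITF bind, were searched after the list had been seen to rise. They stood in 12 of 29 lysosomal promoters (41.4%), against 12.2% of tested genes with a promoter and 8.09% of all. Both strands read alike. The promoters of Ctsf (chr19:4854915-4855214, plus strand) and Naglu (chr11:101069844-101070143, plus strand) are printed 5′ to 3′, since both genes are described above and hold the letters once each, in capitals.
Ctsf: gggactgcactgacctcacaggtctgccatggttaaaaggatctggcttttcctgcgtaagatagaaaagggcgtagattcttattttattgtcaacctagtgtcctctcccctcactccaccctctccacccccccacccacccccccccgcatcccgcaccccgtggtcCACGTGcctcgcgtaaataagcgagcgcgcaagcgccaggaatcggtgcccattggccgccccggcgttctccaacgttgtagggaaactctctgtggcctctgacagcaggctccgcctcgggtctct
Naglu: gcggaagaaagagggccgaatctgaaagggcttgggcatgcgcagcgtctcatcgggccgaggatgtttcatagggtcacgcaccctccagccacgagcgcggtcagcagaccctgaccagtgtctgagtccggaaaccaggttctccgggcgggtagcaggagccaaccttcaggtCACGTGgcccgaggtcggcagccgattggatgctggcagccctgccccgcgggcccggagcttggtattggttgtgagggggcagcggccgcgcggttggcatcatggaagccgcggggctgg

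**Figure D3:**
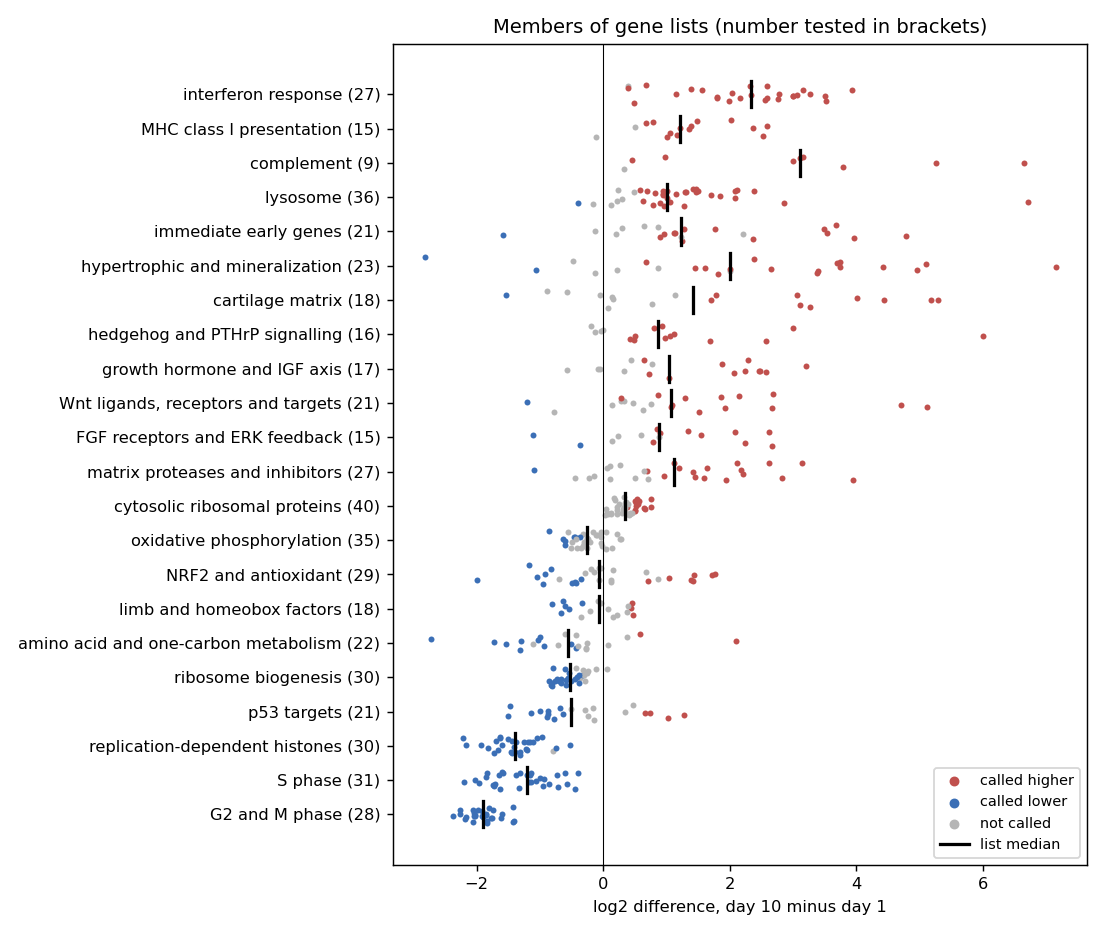
Log2 difference of day 10 minus day 1 (horizontal axis) of each tested member (points) of 22 gene lists, with the number tested in brackets, red for called higher, blue for called lower, grey for not called and a black bar at the list median. The medians run from 3.11 for complement and 2.34 for the interferon response to -1.90 for G2 and M phase.

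Cell cycle genes fell in both phases. Cyclins and their kinases carry cells through DNA replication and mitosis, and growth plate chondrocytes leave the cycle as they mature. All 31 tested S phase genes and all 28 tested G2 and M phase genes fell (100% of each, against 25.1% of all genes tested), with medians of -1.202 and -1.90. Among the S phase genes, Rrm2, a subunit of ribonucleotide reductase, had 80.4, 94.4, 56.0 and 55.6 CPM on day 10, against 329, 311 and 326 CPM on day 1 (log2 difference -2.19 ± 0.19 SE, adjusted p = 7.3e-07). Ccne2, cyclin E2, had 28.6, 27.1, 19.2 and 8.74 CPM on day 10, against 82.8, 74.3 and 87.3 CPM on day 1 (log2 difference -2.03 ± 0.32 SE, adjusted p = 0.00011). Mcm5, a subunit of the replicative helicase, had 102, 98.3, 63.9 and 87.6 CPM on day 10, against 288, 266 and 267 CPM on day 1 (log2 difference -1.65 ± 0.19 SE, adjusted p = 7.6e-06). All 3 were lower in each day 10 library than in any day 1 library. Of the mitotic genes, Ube2c, which marks mitotic proteins for destruction, had 47.7, 64.3, 37.2 and 18.6 CPM on day 10, against 211, 189.7 and 209 CPM on day 1 (log2 difference -2.38 ± 0.30 SE, adjusted p = 2.1e-05). Cdc20, an activator of the anaphase-promoting complex that Ube2c works with, had 68.8, 97.6, 35.8 and 53.02 CPM on day 10, against 296, 284 and 291 CPM on day 1 (log2 difference -2.26 ± 0.27 SE, adjusted p = 9.6e-06). Aurka, a spindle kinase, had 27.4, 39.2, 15.2 and 16.6 CPM on day 10, against 122, 109 and 108 CPM on day 1 (log2 difference -2.25 ± 0.28 SE, adjusted p = 1.6e-05). Here too the groups did not overlap, and libraries 1 and 2 of day 10 were above libraries 3 and 4 for Rrm2, Ccne2, Ube2c, Cdc20, Aurka and Mcm5. Tnnc2 overlaps Ube2c on the opposite strand, and with no strand setting known for the counting their reads cannot be told apart. Between days 5 and 10, 0 genes fell in either list, and 1 S phase gene and 0 G2 and M phase genes rose, by limma over all genes. Of all genes tested, 3.75% were higher on day 10 than on day 5 and 2.02% lower, so in lists of this size these counts are near those shares. Unadjusted p was under 0.05 for 1 falling S phase and 0 falling G2 and M phase genes. DESeq2 called 0 S phase and 0 G2 and M phase genes lower on day 10 than on day 5.

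Mitotic promoters often hold TTTGAA, the cell cycle homology region read by the DREAM complex and B-MYB, and CCAAT boxes read by NF-Y. TTTGAA stood in 17 of 23 G2 and M phase promoters (73.9%), against 13.8% of tested genes with a promoter and 20.2% of all. CCAAT stood in 18 of 23 (78.3%), against 43.5% and 41.1%. E2F elements read as TTTGGCGC stood in 6 of 24 S phase promoters (25%), against 1.18% and 0.585%. TTTCGCGC stood in 5 of 24 (20.8%), against 0.756% and 0.374%, and TTCCCGC in 11 of 24 (45.8%), against 10.18% and 5.29%. Both strands were searched, and TTTGGCGC and TTTCGCGC can overlap, as they do in Mcm5. Promoters of 2 mitotic genes and 1 S phase gene are printed with TTTGAA and CCAAT, or for Mcm5 TTTGGCGC and TTTCGCGC, in capitals on either strand. They lie at chr2:164769679-164769978 (Ube2c, plus strand), chr2:172370521-172370820 (Aurka, minus strand) and chr8:75109259-75109558 (Mcm5, plus strand).
Ube2c: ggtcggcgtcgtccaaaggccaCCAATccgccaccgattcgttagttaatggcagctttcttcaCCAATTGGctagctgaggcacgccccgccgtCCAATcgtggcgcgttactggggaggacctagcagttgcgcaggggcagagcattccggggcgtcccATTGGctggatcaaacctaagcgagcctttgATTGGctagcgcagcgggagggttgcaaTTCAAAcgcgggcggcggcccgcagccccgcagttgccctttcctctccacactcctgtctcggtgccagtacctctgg
Aurka: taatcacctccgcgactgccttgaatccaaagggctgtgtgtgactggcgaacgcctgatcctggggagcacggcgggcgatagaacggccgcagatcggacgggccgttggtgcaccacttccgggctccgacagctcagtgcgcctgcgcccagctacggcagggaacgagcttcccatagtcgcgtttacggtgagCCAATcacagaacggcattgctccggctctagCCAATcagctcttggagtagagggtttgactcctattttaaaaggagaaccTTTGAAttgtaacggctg
Mcm5: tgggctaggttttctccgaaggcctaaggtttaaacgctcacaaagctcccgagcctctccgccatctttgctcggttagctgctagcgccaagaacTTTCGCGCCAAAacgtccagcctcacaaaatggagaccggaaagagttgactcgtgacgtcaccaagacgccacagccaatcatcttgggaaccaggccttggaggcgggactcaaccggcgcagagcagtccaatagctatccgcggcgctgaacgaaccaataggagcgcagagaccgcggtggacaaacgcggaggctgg

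Genes that stand with division moved down too. Of 30 tested replication-dependent histone genes 29 fell (96.7%, against 25.1% of all genes tested) and 0 rose (against 24.3%). Hist1h1b, linker histone H1.5, was at 183, 193, 88.1 and 87.4 CPM on day 10, against 557, 452 and 467 CPM on day 1 (log2 difference -1.92 ± 0.30 SE, adjusted p = 0.00011). Core histone genes are near copies of each other, so values of single members are uncertain. Of 24 fetal growth and progenitor factors 12 fell (50%, against 25.1% of all genes tested) and 4 rose (16.7%, against 24.3%). E2f7, a repressor of S phase genes, had 28.2, 21.6, 15.5 and 18.8 CPM on day 10, against 99.8, 84.3 and 85.9 CPM on day 1 (log2 difference -2.07 ± 0.21 SE, adjusted p = 3.2e-06). Suz12 and Ezh2, subunits of the Polycomb complex that methylates histone H3, had log2 differences of -1.14 and -1.02 (adjusted p = 1.0e-05 and 0.00024). Dnmt1, which copies DNA methylation at replication, was at -0.91 (adjusted p = 0.00052), and Dnmt3a, which sets it anew, was at 0.78 (adjusted p = 0.0074). Myc rose (9.69, 16.9, 9.31 and 12.7 CPM on day 10, against 2.44, 5.97 and 5.63 CPM on day 1, log2 difference 1.24 ± 0.35 SE, adjusted p = 0.0091), a call lost without library 1 of day 1 (adjusted p = 0.062). Peg10, an imprinted gene derived from a retrotransposon, had 433, 587, 337 and 317 CPM on day 10, against 2058, 2043 and 2033 CPM on day 1 (log2 difference -2.33 ± 0.25 SE, adjusted p = 4.2e-06), while H19, an imprinted noncoding RNA, had 127, 330.4, 44.9 and 46.0 CPM on day 10, against 17.9, 3.45 and 3.28 CPM on day 1 (log2 difference 3.78 ± 1.01 SE, adjusted p = 0.0061, and 3.19 and 4.49 without library 2 of day 10 or library 1 of day 1). In Peg10 the groups did not overlap, and in H19 libraries 1 and 2 of day 10 were above libraries 3 and 4. Of 13 tested imprinted genes 5 rose (38.5%, against 24.3% of all genes tested) and 2 fell (15.4%, against 25.1%). Cdkn1c, an imprinted inhibitor of cyclin-dependent kinases, rose (7.47, 10.6, 2.25 and 3.54 CPM on day 10, against 0.853, 0.863 and 0.68 CPM on day 1, log2 difference 1.78 ± 0.56 SE, adjusted p = 0.016). Cdkn1a, the p53 target p21, had 44.6, 206, 30.8 and 35.8 CPM on day 10, against 37.3, 55.2 and 52.1 CPM on day 1 and did not pass (adjusted p = 0.67). Its log2 difference was 0.25, and -0.37 without library 2 of day 10. Of 21 p53 targets 10 fell (47.6%, against 25.1% of all genes tested) and 4 rose (19.05%, below the 24.3% of all genes tested). Bax, which promotes cell death, was at -1.0002 (adjusted p = 2.2e-05) and Bbc3, another such gene, at 1.28 (adjusted p = 0.00046).

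Nucleolar factors of ribosome biogenesis fell in most cases. Of 30 tested 21 fell (70%, against 25.1% of all genes tested) and 0 rose (against 24.3%), with a median of -0.52. Rrn3, which recruits RNA polymerase I to ribosomal DNA, had 151, 142, 149 and 121 CPM on day 10, against 253, 244 and 262 CPM on day 1 (log2 difference -0.85 ± 0.10 SE, adjusted p = 8.3e-06). Ddx21, a nucleolar helicase, had 396, 426, 347 and 382 CPM on day 10, against 678, 672 and 686 CPM on day 1 (log2 difference -0.81 ± 0.12 SE, adjusted p = 7.6e-05). Ncl, nucleolin, had 1117, 1057, 1052 and 799.8 CPM on day 10, against 1543, 1466 and 1475 CPM on day 1 (log2 difference -0.58 ± 0.14 SE, adjusted p = 0.0038). All 3 were lower in each day 10 library than in any day 1 library. Without the libraries numbered 3, 10 fell. Of 40 genes of the ribosomal proteins themselves 13 rose (32.5%, against 24.3% of all genes tested), 0 fell and 27 did not pass, with a median of 0.35, and 20 rose without library 4 of day 10. Their rising count was 3 without the libraries numbered 3 and 6 without those numbered 4. Ribosomal protein genes have many processed copies, so reads may be split among them. Their list medians were 0.00, 0.61, 0.71 and 0.36 (log2 over day 1) on days 1, 3, 5 and 10, so day 10 lay below day 5. Of 22 genes of amino acid and one-carbon metabolism 10 fell (45.5%, against 25.1% of all genes tested) and 2, Cbs and Slc1a5, rose (9.09%). Mthfd2, a mitochondrial folate enzyme, had 46.9, 109, 51.5 and 42.9 CPM on day 10, against 119, 241 and 256 CPM on day 1 (log2 difference -1.72 ± 0.36 SE, adjusted p = 0.0011), and Slc7a11, the cystine importer, had 8.36, 20.3, 5.28 and 5.12 CPM on day 10, against 17.4, 107 and 116 CPM on day 1 (log2 difference -2.71 ± 0.60 SE, adjusted p = 0.0018, and -3.58 without library 1 of day 1). In both, library 1 of day 1 was below the other day 1 libraries. Slc1a5 lost its call without library 1 of day 1 (adjusted p = 0.14), and the falling count was 3 without the libraries numbered 3 and 5 without those numbered 4. TTGCATCA, the element of the amino acid response factor ATF4 and searched after the data were seen, stood in 4 of 18 promoters of the list (22.2%), against 0.681% of tested genes and 1.03% of all.

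Antioxidant genes held members that rose and members that fell. NRF2 switches on genes that make glutathione and reduce oxidized proteins. Of 29 tested 10 fell (34.5%, against 25.1% of all genes tested) and 7 rose (24.1%, against 24.3%). Nqo1, a quinone reductase, had 13.2, 12.9, 19.4 and 12.95 CPM on day 10, against 93.4, 46.8 and 50.04 CPM on day 1 (log2 difference -1.99 ± 0.24 SE, adjusted p = 1.2e-05). Gclc and Gclm, the subunits of the enzyme that makes the glutathione precursor, were at -1.17 and -0.95 (adjusted p = 3.1e-07 and 8.4e-06), and Txnrd1, thioredoxin reductase, at -1.04 (adjusted p = 2.5e-06). Gpx8, a peroxidase of the endoplasmic reticulum, was at 1.42 (adjusted p = 0.0012), and Gstt1, a glutathione transferase, had 32.4, 27.7, 23.8 and 16.9 CPM on day 10, against 9.56, 5.04 and 5.50 CPM on day 1 (log2 difference 1.78 ± 0.40 SE, adjusted p = 0.0018). Of 29 genes of glycolysis and the hypoxia response 13 rose (44.8%) and 2 fell (6.90%), and 8 fell without library 2 of day 10. Epas1, the hypoxia factor HIF-2 alpha, had 12.9, 24.0, 15.4 and 26.7 CPM on day 10, against 0.183, 0.288 and 0.186 CPM on day 1 (log2 difference 4.03 ± 0.23 SE, adjusted p = 2.1e-08). Ndrg1, a stress-induced gene, had 164, 231, 225 and 301 CPM on day 10, against 42.0, 59.6 and 58.3 CPM on day 1 (log2 difference 2.07 ± 0.21 SE, adjusted p = 3.3e-06). Egln3, a hydroxylase that tags HIF for destruction, had 2.98, 59.9, 4.97 and 3.31 CPM on day 10, against 1.04, 1.15 and 1.36 CPM on day 1, so library 2 of day 10 stood above all others. Its log2 difference was 2.03 (adjusted p = 0.022), 1.103 without that library (adjusted p = 0.0049), and its call was lost without library 1, 3 or 4 of day 1 (adjusted p = 0.060, 0.057 and 0.051). Of 35 subunits of oxidative phosphorylation 7 fell and 0 rose, with a median of -0.25. The falling share of 20% was below the 25.1% of all genes tested. The count was 11 without library 2 of day 10, 3 without library 1 of day 1 and 4 without library 4 of day 1.

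Signalling genes rose more often than they fell. In the hedgehog and PTHrP list 12 of 16 rose (75%, against 24.3% of all genes tested) and 0 fell (against 25.1%). Pth1r, the PTHrP receptor, had 204, 475, 83.7 and 106 CPM on day 10, against 1.83, 1.94 and 1.299 CPM on day 1 (log2 difference 6.01 ± 0.53 SE, adjusted p = 7.6e-07). Gli2, a hedgehog transcription factor, had 26.7, 27.9, 25.3 and 39.8 CPM on day 10, against 7.98, 8.27 and 9.03 CPM on day 1 (log2 difference 1.69 ± 0.23 SE, adjusted p = 3.7e-05). Boc, a hedgehog co-receptor, had 182, 189, 227 and 295 CPM on day 10, against 107, 108 and 99.9 CPM on day 1 (log2 difference 1.05 ± 0.17 SE, adjusted p = 0.00013), and its day 3 and day 5 means were 302 and 314 CPM. Ptch1, the hedgehog receptor and a target of the pathway, was at 0.97 (adjusted p = 0.016), a call lost without library 4 of day 1 (adjusted p = 0.059), and at 0.63 without library 2 of day 10 (adjusted p = 0.023). Pthlh, the ligand, had 2.09, 1.49, 2.04 and 1.81 CPM on day 10, against 2.01, 2.45 and 2.29 CPM on day 1 and did not pass. GACCACCC, a GLI element, stood in 0 of 14 promoters of the list, against 1.1% of tested genes and 0.932% of all. No match says only that these letters are not in this window.

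Wnt ligands, receptors and targets rose in 13 of 21 (61.9%, against 24.3% of all genes tested). They fell in 1, Lgr4 (4.76%, against 25.1%), and 2 fell without library 2 of day 10 or library 1 of day 1. Wnt16, a ligand expressed in joints and bone, had 146, 76.6, 146 and 233 CPM on day 10, against 3.90, 2.59 and 2.78 CPM on day 1 (log2 difference 5.12 ± 0.39 SE, adjusted p = 2.1e-07). Lgr5, a receptor for R-spondins, had 338, 158, 545 and 522 CPM on day 10, against 12.2, 11.8 and 13.2 CPM on day 1 (log2 difference 4.72 ± 0.35 SE, adjusted p = 1.7e-07), while the related receptor Lgr4 had 88.1, 80.0, 75.2 and 69.1 CPM on day 10, against 138, 209 and 205 CPM on day 1 (log2 difference -1.205 ± 0.13 SE, adjusted p = 5.9e-06). Rspo2, an R-spondin, had 29.95, 10.8, 38.3 and 30.2 CPM on day 10, against 3.17, 2.81 and 3.03 CPM on day 1 (log2 difference 2.69 ± 0.35 SE, adjusted p = 2.2e-05). Wnt16, Lgr5 and Rspo2 were each lowest in library 2 among the day 10 libraries. Of 10 tested Wnt antagonists 5 rose (50%) and 1 fell (10%). Dkk2 rose (21.6, 56.4, 23.3 and 24.9 CPM on day 10, against 0.426, 0.144 and 0.309 CPM on day 1, log2 difference 4.54 ± 0.60 SE, adjusted p = 2.5e-05). In the growth hormone and insulin-like growth factor (IGF) list 11 of 17 rose (64.7%) and 0 fell, and 7 rose without the libraries numbered 3. Igfbp7, an IGF-binding protein, had 62.2, 88.7, 77.5 and 111 CPM on day 10, against 7.62, 7.84 and 8.84 CPM on day 1 (log2 difference 3.21 ± 0.31 SE, adjusted p = 1.9e-06). Irs1, the adaptor of the insulin and IGF receptors, had 323, 208, 287 and 335 CPM on day 10, against 63.0, 56.3 and 58.1 CPM on day 1 (log2 difference 2.24 ± 0.19 SE, adjusted p = 6.4e-07), and Socs2, a brake on growth hormone signals, had 25.1, 22.1, 20.4 and 19.7 CPM on day 10, against 3.29, 3.89 and 3.71 CPM on day 1 (log2 difference 2.30 ± 0.18 SE, adjusted p = 3.1e-07). Of 15 genes of FGF receptors and ERK feedback 9 rose (60%) and 2, Fgfr3 and Spred1, fell (13.3%). In this list 1 fell without library 3 or library 4 of day 10 or without library 1, 3 or 4 of day 1. Etv5 and Dusp4, targets of the ERK pathway, were at 2.67 and 2.62 (adjusted p = 3.2e-06 and 1.9e-05). In the BMP and TGF-beta list of 26, 10 rose (38.5%) and 4, Id1, Id2, Smad6 and Smad7, fell (15.4%, below the 25.1% of all genes tested). Id1 and Id2 are targets of BMP signals, and the 2 inhibitory Smads are feedback genes. The Id1 call was lost without library 1 or 2 of day 10 (adjusted p = 0.066 and 0.069) and without library 1, 3 or 4 of day 1 (adjusted p = 0.068, 0.084 and 0.070). Smad6 lost its call without library 1 or 2 of day 10 or library 3 or 4 of day 1 (adjusted p up to 0.081), and Smad7 without library 3 or 4 of day 1 (adjusted p up to 0.061). The falling count was 2 without library 1 or library 2 of day 10, and 1 without library 3 or library 4 of day 1. Tgfbr3, betaglycan, had 138, 142, 149 and 189.7 CPM on day 10, against 27.5, 14.9 and 14.97 CPM on day 1 (log2 difference 2.997 ± 0.21 SE, adjusted p = 1.1e-07).

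Immediate early genes, which answer serum and other stimuli within the hour, were higher on day 10. Of 21 tested 13 rose (61.9%, against 24.3% of all genes tested) and 1, Fosl1, fell (4.76%, against 25.1%). Egr1 had 139, 360.3, 94.9 and 111 CPM on day 10, against 7.80, 3.24 and 3.53 CPM on day 1 (log2 difference 4.79 ± 0.42 SE, adjusted p = 6.8e-07), and Nr4a3, an orphan nuclear receptor, had 21.8, 30.2, 23.1 and 27.5 CPM on day 10, against 1.097, 1.01 and 1.11 CPM on day 1 (log2 difference 3.68 ± 0.31 SE, adjusted p = 4.8e-07). Both were far above day 1 in every day 10 library. Fos had 8.74, 139, 10.097 and 15.1 CPM on day 10, against 0.426, 0.288 and 0.557 CPM on day 1 (log2 difference 3.97 ± 1.07 SE, adjusted p = 0.0064, and 3.08 without library 2 of day 10), with library 2 of day 10 over the others, and Fosl1 had 2.53, 9.93, 4.60 and 6.48 CPM on day 10, against 17.1, 19.1 and 17.9 CPM on day 1 (log2 difference -1.58 ± 0.37 SE, adjusted p = 0.0023). Among targets of YAP, the factor that senses spreading and crowding, Ctgf was at 135, 83.6, 331 and 452 CPM on day 10, against 17.8, 28.9 and 24.99 CPM on day 1 (log2 difference 3.06 ± 0.57 SE, adjusted p = 0.00047) and Ankrd1 at 1.52, 2.24, 1.52 and 1.58 CPM on day 10, against 23.8, 29.3 and 28.7 CPM on day 1 (log2 difference -3.38 ± 0.22 SE, adjusted p = 7.3e-08). Of 24 YAP and contractile genes 5 rose (20.8%) and 7 fell (29.2%), near the 24.3% and 25.1% of all genes tested, and 4 fell without library 4 of day 1. Of 20 circadian clock genes 9 rose (45%) and 1, Clock, fell (5%), and 2 fell without library 4 of day 10 or library 1 of day 1. Dbp, an output gene of the clock, had 14.9, 13.5, 16.4 and 27.6 CPM on day 10, against 3.47, 2.59 and 2.23 CPM on day 1 (log2 difference 2.31 ± 0.20 SE, adjusted p = 7.4e-07), and Clock had 91.9, 81.8, 87.6 and 68.5 CPM on day 10, against 173, 164 and 166 CPM on day 1 (log2 difference -1.02 ± 0.15 SE, adjusted p = 6.0e-05). The hour at which RNA was taken is not given in the sources used here.

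Homeobox and adipocyte genes held members that rose and members that fell. Of 18 homeobox and other limb factors 6 fell (33.3%, against 25.1% of all genes tested) and 3 rose (16.7%, against 24.3%), with a median of -0.058. Hoxa9 was at -0.80 (adjusted p = 0.00019), and Hoxd13, a factor of the digits, at -0.60 (adjusted p = 0.00053). The rising count was 0 or 1 in each leave-out of a single library. Adipocyte genes were measured as well, since adipocytes share a progenitor with bone. Of 12 tested 6 rose (50%) and 2, Pparg and Fabp5, fell (16.7%, below the 25.1% of all genes tested). Pparg, the master factor of fat cells, had 20.3, 9.87, 22.8 and 20.3 CPM on day 10, against 30.8, 38.2 and 37.4 CPM on day 1 (log2 difference -0.97 ± 0.21 SE, adjusted p = 0.0015), and Cebpa, its partner, had 46.4, 38.8, 46.2 and 81.1 CPM on day 10, against 7.98, 6.62 and 7.05 CPM on day 1 (log2 difference 2.66 ± 0.27 SE, adjusted p = 2.5e-06).

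Many genes of cholesterol and fatty acid synthesis were higher on day 10 than on day 5, but few than on day 1. Cells make cholesterol from acetyl-CoA under the control of SREBP2, which acts when sterols are low. Of 26 tested members 5 rose between day 1 and day 10 (19.2%, below the 24.3% of all genes tested) and 0 fell (against 25.1%). The rising count was 3 without library 1 of day 10, 3 without library 3 of day 10, 9 without library 2 of day 10, 9 without library 1 of day 1, 1 without library 3 of day 1 and 2 without library 4 of day 1. Against day 5, 14 of the 26 were higher on day 10 and 0 lower, where 3.75% and 2.02% of all genes tested were. Hmgcs1, an early enzyme of the pathway, averaged 331, 331, 218 and 382 CPM on days 1, 3, 5 and 10, and Sqle, squalene epoxidase, 142, 144, 95.2 and 184 CPM. Both were lowest on day 5. The step from day 5 was 0.78 (log2, adjusted p = 0.041) for Hmgcs1 and 0.93 (log2, adjusted p = 0.0043) for Sqle. Leaving out single libraries gave 7 (library 1 of day 10) to 17 (library 2 of day 10) members, with 9 and 9 without library 3 or 4 of day 10. The count was 2 with no libraries numbered 3 and 1 with none numbered 4.

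**Figure D4:**
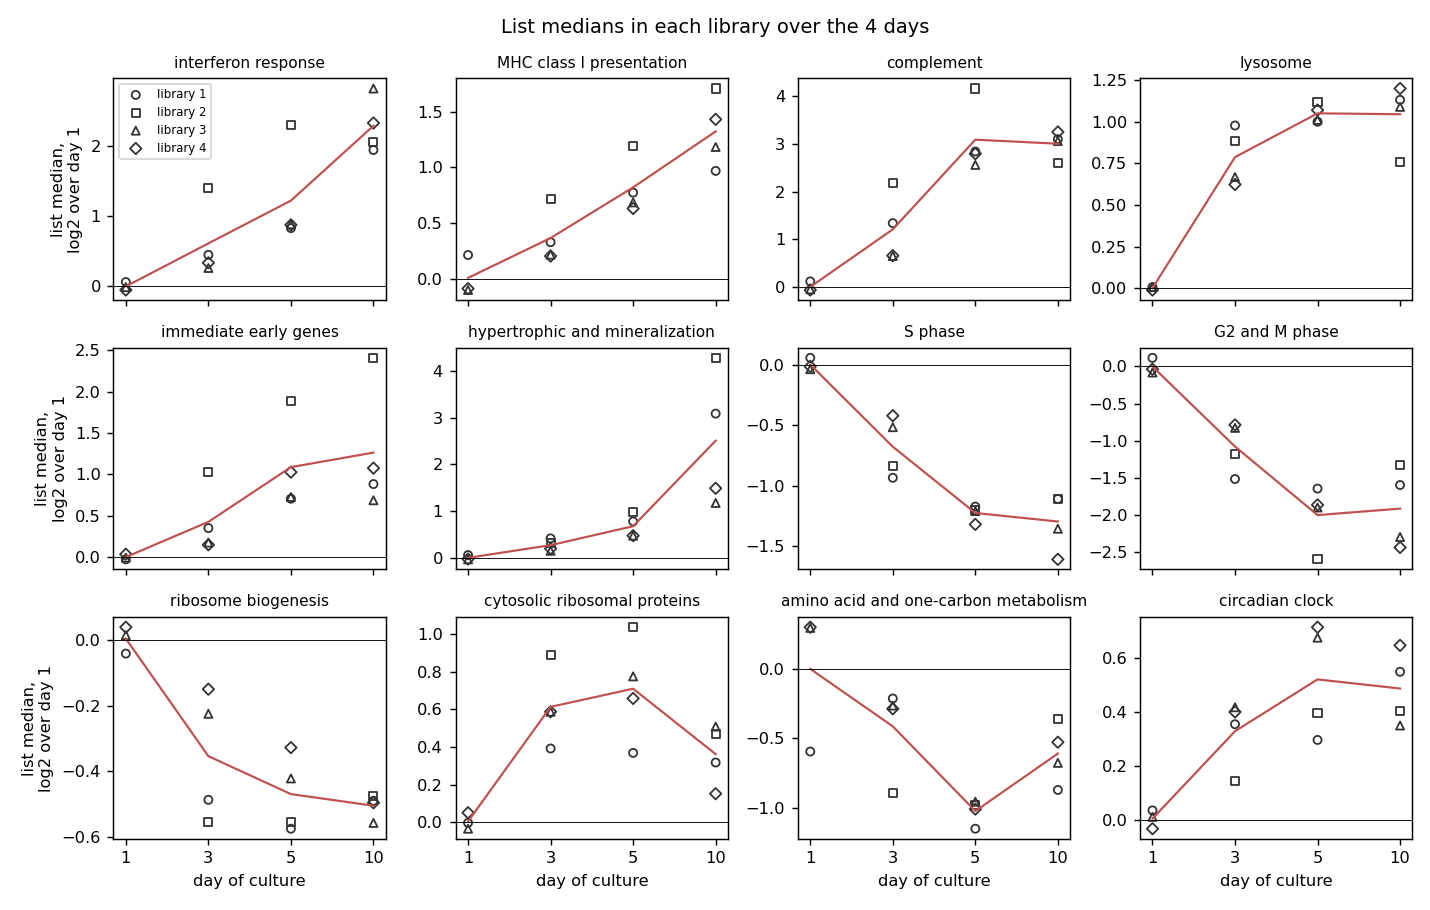
Median over list members of log2(CPM + 1) minus the member's day 1 mean (vertical axis, scaled per panel) in each of the 15 libraries on days 1, 3, 5 and 10 (horizontal axis, evenly spaced), for 12 gene lists, with symbols for library numbers and a line through the means of each day. Interferon and MHC class I lists rise through day 10, lysosome and complement lists are level between days 5 and 10, and cell cycle lists stay low from day 5.

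The day 10 libraries differed among themselves in a patterned way. Libraries 2 and 4 lay farthest from the day 10 mean, with an SD over genes of 0.445 and 0.435, against 0.242 for library 1 and 0.303 for library 3 (log2). The genes described next were chosen for this difference between libraries after their values were seen, so the difference itself gets no test, and each adjusted p given for them is that of day 10 against day 1. Slc13a5, a citrate transporter of mineralizing bone, had 29.6, 342, 0 and 0.0753 CPM on day 10 and was at 0 in all 3 day 1 libraries. Prss35, a secreted serine protease-like protein, had 24.5, 148, 0.471 and 0.979 CPM, and Tcf7, a Wnt-responsive factor, had 84.9, 195, 7.69 and 6.33 CPM. Col1a2, a chain of collagen I, had 1122, 7766, 144 and 258 CPM on day 10, against 422, 511 and 433 CPM on day 1. Its log2 difference was 0.74 (adjusted p = 0.53), and -0.38 without library 2 of day 10 (adjusted p = 0.61). Each of these was highest in library 2, next in library 1, and low in libraries 3 and 4.

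Other genes ran the opposite way, higher in libraries 3 and 4 of day 10 than in libraries 1 and 2. Col10a1, the collagen of hypertrophic cartilage, had 8.11, 7.63, 51.2 and 59.6 CPM on day 10, against 100.2, 203 and 189 CPM on day 1, so its day 10 libraries were all below day 1 (log2 difference -2.82 ± 0.58 SE, adjusted p = 0.00096). Matn1, matrilin-1, had 22.9, 9.24, 87.4 and 130.3 CPM on day 10, against 1.16, 0.791 and 0.742 CPM on day 1 (log2 difference 4.44 ± 0.79 SE, adjusted p = 0.00031, and 5.11 without library 2 of day 10). Igfbp5, an IGF-binding protein, had 58.4, 73.9, 284 and 339.6 CPM on day 10, against 21.7, 26.2 and 28.4 CPM on day 1 (log2 difference 2.46 ± 0.63 SE, adjusted p = 0.0048). Both were above day 1 in every day 10 library. Grem1, a BMP antagonist, had 21.1, 1.15, 74.7 and 88.0 CPM on day 10, against 38.3, 53.3 and 49.4 CPM on day 1, so day 10 overlapped day 1 (adjusted p = 0.38). Sfrp4, a Wnt antagonist, had 24.5, 32.1, 123 and 113 CPM on day 10, against 0.122, 0 and 0.0619 CPM on day 1, and its pooled reads gave 4802 reads on day 10 against 3 reads on day 1, a ratio of 1134 with an exact 95% interval of 388 to 5501. With libraries 3 and 4 of both days alone, 3412 genes rose and 3286 fell, and the osteoblast list had 5 rising and 6 falling members. In that comparison the interferon list had 27 rising of 27, the lysosome list 31 of 36, and the G2 and M phase list 28 falling of 28. Whether libraries 3 and 4 share a culture, and libraries 1 and 2 another, was not tested.

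**Figure D5:**
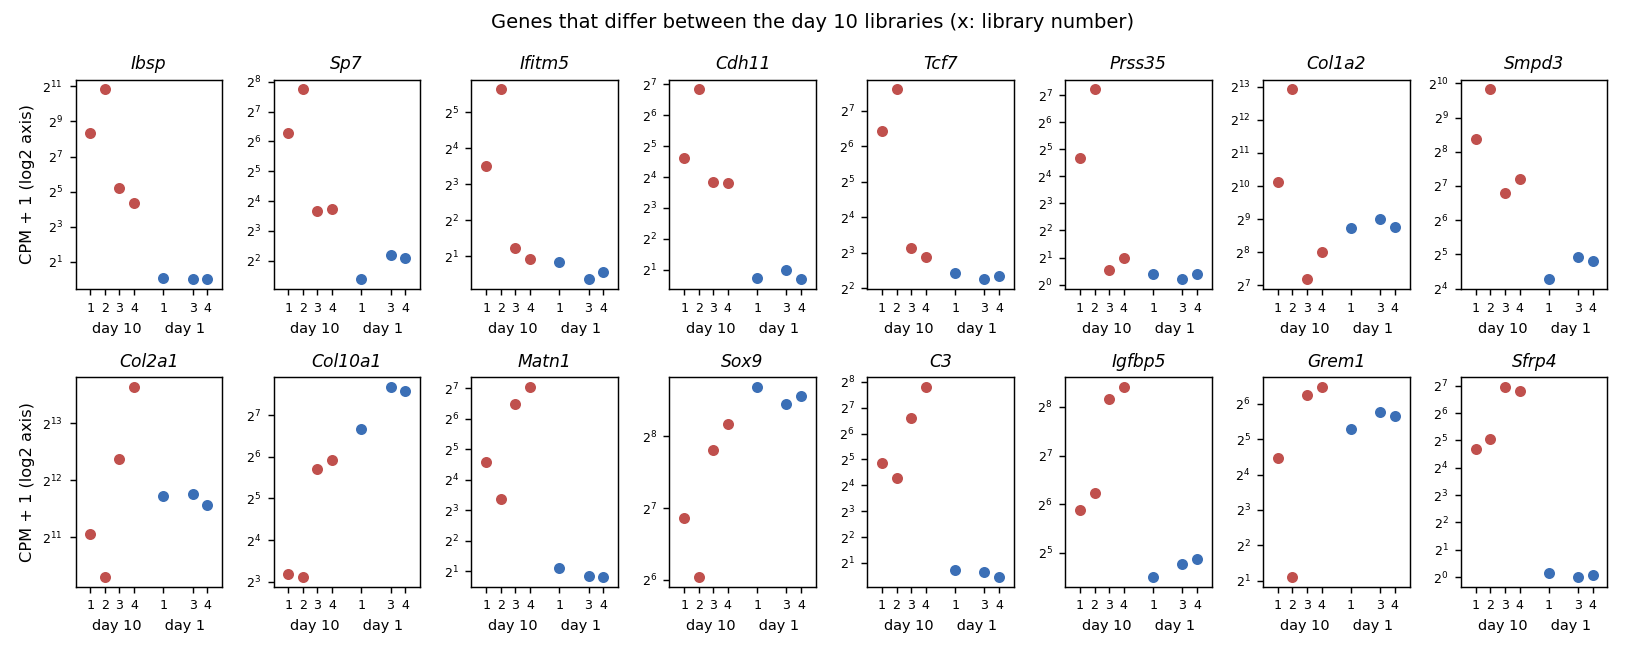
CPM + 1 (vertical log2 axis, scaled per panel) of 16 genes in each library, with day 10 (red) left of day 1 (blue) and the library number on the horizontal axis. The top row holds genes that were highest in library 2 of day 10, and the bottom row genes that were higher in libraries 3 and 4 of day 10 than in libraries 1 and 2.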

How the data were processed

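RNA-seq of the cell line was read from 1 table of 15 libraries, whose columns were assigned to days by the day in their names. Reads were aligned to GRCm38 with STAR, counted with featureCounts and handled in edgeR, per the submitters' processing notes. The sources used here do not give the strand setting or the annotation. The deposited values are a depth-scaled signal that the authors made: per the values themselves, CPM divided by a TMM scaling factor, and 100% of them were whole multiples of 1 read within 0.1%, so reads could be recovered.

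The 12109 genes with a mean of day means at or above 1 CPM were tested with limma 3.58.1 (trended prior, R 4.3.3) on log2(CPM + 1), all 15 libraries in 1 fit, with Benjamini-Hochberg adjustment over all genes and an adjusted p of 0.05 or less as the threshold. Log2 differences are day 10 minus day 1 on the log2(CPM + 1) scale, which understates changes of low genes. The fit was tested on simulated data. Ratios of pooled reads have exact 95% intervals that cover counting error only, and stand in where day 1 had 3 reads or fewer. Coordinates are those of GENCODE M21 on GRCm38, and promoters are those of RefSeq on GRCm38.p6, matched by symbol. Single genes were named as the 15 highest and 15 lowest with no overlap, as up to 4 highest and 4 lowest of each list, from a panel of defining genes, or where a list's account needed a member that did not pass. Genes named for their spread on day 10, Tnnc2, the Polycomb, p53 and Wnt members outside that rule and the genes of the late step were chosen after their values were seen. A few genes that the rule names are not reported here. Members and lists were chosen with earlier results of these data known. Alternatives changed the pseudocount (0.25 or 5 CPM), the filter (none or 5 CPM), the scaling, the libraries, a block for library number and the tool (edgeR 4.0.16 quasi-likelihood and DESeq2 1.42.0 on the recovered reads).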

Additional observations from a re-analysis of the deposited data

Results flagged for a closer look

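In a group of 4 libraries, a library was singled out where its gap to the nearest other, divided by the whole range of the group, exceeded Dixon's 95% critical value. Of 208 tests over the genes named and the lists, 10 met this, which is about the 1 in 20 that chance alone gives. Some of the genes tested were named because their day 10 libraries differ. The p-values of the genes are in the report, and no explanation was tested.

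Library 2 of day 10 accounted for 7 of the 10. It had 31.0 CPM of Gpnmb, below the other day 10 libraries, and 9.87 CPM of Pparg, also below them. It was above the other day 10 libraries in Egln3 at 59.9 CPM, Dmp1 at 40.1 CPM, Dkk2 at 56.4 CPM and Ankrd1 at 2.24 CPM. The glycolysis and hypoxia response list had a median of 0.94 (log2 over day 1) in that library, also above the others.

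Library 4 of day 10 had 65.1 CPM of Suz12, below the other day 10 libraries, and 12.9 CPM of Tnnc2, above them. Library 3 of day 10 had 19.4 CPM of Nqo1, above the other 3. Groups of 3 libraries, as on day 1, were not tested in this way.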

How the results depend on the processing

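Counts of genes between day 10 and day 1 held within 1.5 times under the alternatives, with 2 exceptions. At least 2-fold higher genes numbered 862 at a pseudocount of 5 CPM, which shrinks folds of low genes by construction, and lower genes 1927 with no libraries numbered 3, which leaves fewer libraries. Leaving out single libraries gave 2426 to 3106 higher genes, 2381 to 3130 lower genes, 1306 to 1435 at least 2-fold higher and 622 to 840 at least 2-fold lower. On the recovered reads edgeR called 3131 higher and 2851 lower, and DESeq2 3274 and 3019.

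The step from day 5 to day 10 was less stable than the main comparison in these counts. Its 454 higher and 245 lower genes became 81 and 14 with libraries 3 and 4 averaged, and 915 and 541 with libraries 3 and 4 alone. DESeq2 gave 921 and 418. Day 10 libraries 1 and 3 alone gave 221 and 67. With no libraries of 1 number the counts were 162 and 59 (number 1), 105 and 12 (number 3) and 77 and 13 (number 4). Leaving out single libraries gave 332 to 598 higher and 154 to 380 lower, with 380 without library 3 of day 10, 160.0 without library 3 of day 1 and 154 without library 4 of day 1. A fit of days 10 and 1 only gives no value for this step. The cause of these differences was not tested.

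Whether library numbers pair the days was not settled. Deviations of same-numbered libraries of day 10 and day 1 correlated over genes at 0.26 (number 1), -0.016 (number 3) and -0.067 (number 4). A replicate block for the number raised the counts, to 3368 higher and 3483 lower genes from 2939 and 3044. In the late step it gave 871 higher and 636 lower, from 454 and 245.

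Of 146 named genes that passed the test, 114 kept direction and call under each of the 24 alternatives that gave them a value, and 13 of the 159 named genes had none under 1 of these, the filter at 5 CPM. Signs turned in 7 genes that did not pass: with libraries 3 and 4 alone the log2 differences were 0.25 (Acan), -0.68 (Cdkn1a), -1.28 (Col1a2), 0.65 (Grem1) and -0.12 (Runx2), with libraries 1 and 3 of day 10 alone -0.35 (Cdkn1a) and -0.17 (Col1a2), and with no libraries numbered 2 -0.37 (Cdkn1a), -0.38 (Col1a2) and 0.16 (Grem1). Hmgcs1 was at -0.017 with no libraries numbered 3. Col2a1 was at -0.24 with libraries 3 and 4 averaged and at -0.50 with no libraries numbered 4. Leaving out single libraries gave -0.37 to 0.54 for Cdkn1a, -0.38 to 1.53 for Col1a2, -1.63 to 0.16 for Grem1 and -0.44 to 0.67 for Col2a1. Alternatives with no libraries of 1 number and with libraries 1 and 3 of day 10 alone were chosen after seeing the data. With no libraries of any 1 number, the interferon, lysosome, S phase and G2 and M phase counts stayed within 1.5 times of those reported, apart from the single lysosomal gene that fell. Depth limits genes of a few reads, and 6 of the 159 named genes had 3 reads or fewer on day 1, as did Bglap and Bglap2.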
